A study of Mus musculus with 6 samples.

Results

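The cyclin-dependent kinase (CDK) inhibitor genes Cdkn1b, Cdkn1c, Cdkn2a, Cdkn2b, Cdkn2c and Cdkn2d and the retinoblastoma family genes Rb1, Rbl1 and Rbl2 were examined in MLE-12 cells with and without NR4A1 overexpression. The 9 genes were chosen by name from the 34745 genes of the expression table. The MLE-12 line is epithelial and was derived from lung tumours of mice that express the SV40 large T antigen from a surfactant protein C promoter. All 6 samples were transfected with Lipofectamine 2000. In the NR4A1 overexpression group, 3 samples received the mouse Nr4a1 open reading frame in the pCMV-SPORT6 vector, and in the control group 3 samples received the empty vector. The time between transfection and RNA extraction was not given for the sequenced samples. All are of 1 cell line and nothing states that they came from separate cultures, so the p-values below measure the spread between these 6 libraries.

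Passage through G1 is set by the balance between the D-type and E-type cyclins with their kinases and the inhibitors that bind them. INK4 proteins (encoded by the Cdkn2 genes) bind CDK4 and CDK6 and keep D-type cyclins away, whereas CIP/KIP proteins (encoded by the Cdkn1 genes) bind cyclin-CDK complexes, including those of CDK2. The kinases phosphorylate the pocket proteins RB, p107 and p130, which in the unphosphorylated state hold E2F transcription factors and repress the genes of DNA synthesis. The SV40 large T antigen binds all members of the pocket protein family and p53, which is the background against which the levels in this line were read. The study asked how NR4A1 acts on the proliferation of these cells, and the comparison here asks whether transcripts of these cell-cycle brakes differed between the groups.

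The total count per library was between 15019038 and 17574340, and the limit that a count of 0 allows, 3 counts, corresponds to between 0.171 and 0.200 CPM (counts scaled to a common library total), for counting error only. Nr4a1, the transfected gene, was counted 50660, 60093 and 68555 times with the NR4A1 plasmid and 428, 510 and 463 times with the vector. Of the epithelial markers, Krt8, Krt19, Cdh1, Nkx2-1 and Sftpc were counted at least 439 times in every library, while Epcam was counted at most 22 times, Cldn4 at most once, and Krt18 164 times in NR4A1 replicate 2 and 2 to 21 times elsewhere. NR4A1 replicate 2 stood apart on the first principal component (score 57.4, against -20.8 to 2.24 in the other 5). In that library, the summed level of 8 endothelial markers was 115 CPM against 7.82 to 9.71 CPM elsewhere, that of 6 smooth muscle markers was 321 against 1.49 to 2.72 CPM, and that of 8 fibroblast markers was 1566 against 918 to 1043 CPM. Of these markers, 7 of 8, 6 of 6 and 6 of 8 were highest there. Most of the fibroblast sum was Dcn, at 14138 to 17269 counts in all 6 libraries. After NR4A1 replicate 2, with 4504 counts of Col1a2 and 611 of Pdgfra, vector replicate 1 had the most counts of most other fibroblast markers. It had 284 of Col1a2 and 92 of Pdgfra, against 10 to 45 and 12 to 18 in the libraries other than these. Lum was an exception, with 70 counts in vector replicate 1 and 75 in vector replicate 3. The 6 immune markers, with Itgam on 2 rows, were summed as well. They were at 4.17 CPM in NR4A1 replicate 2 against 1.91 to 3.28 CPM elsewhere. Ptprc was at most at 1 count in any library. In the 5 libraries other than NR4A1 replicate 2, Cdh5, Kdr, Tie1 and Actg2 were at 0 counts. Each group comparison below is therefore also given without NR4A1 replicate 2 where its direction changed.

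No difference between the groups passed the test for any of the 9 genes. A gene was called where its fold change was 2 or more in either direction and its p, adjusted by Benjamini-Hochberg over the 12941 genes that passed the filter on low counts, was under 0.05 in edgeR's quasi-likelihood test. By this rule 0 of the 9 were called, and 0.170% of all genes tested were called, 22 genes that were all higher. All 9 passed the filter. At an unadjusted p under 0.05, 0 of the 9 and 6.46% of all genes passed, and 0 of the 9 were called by DESeq2, the exact test, limma-voom or any other alternative that was run. The log2 fold changes lay between -0.16 (Cdkn2d) and 0.06 (Rb1), with a median of -0.03 against 0.01 over all genes tested. The 95% confidence intervals reached from 0.720-fold (lower end, Cdkn2a) to 1.32-fold (upper end, Rb1), so a 2-fold change in either direction lay outside the interval of every one of the 9 genes. In bulk RNA, fewer cells with a transcript and less transcript per cell cannot be told apart.

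**Figure D1:**
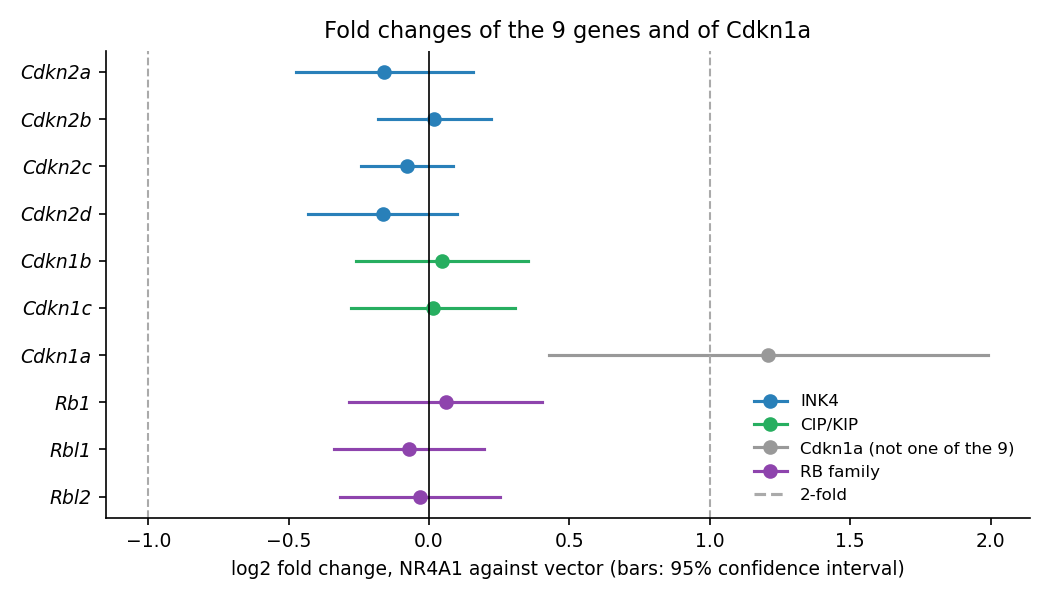
Log2 fold change of each gene, NR4A1 overexpression against vector (points), with its 95% confidence interval from edgeR's quasi-likelihood fit (bars). The intervals of all 9 genes include 0 and end short of the dashed 2-fold lines, and Cdkn1a, plotted for reference, lies at 1.21.

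The INK4 gene Cdkn2a was by far the most abundant of the 9, and Cdkn1c and Rb1 the least. FPKM, the deposited unit, divides counts by gene length and library total, and it was used for every comparison of levels between genes. Averaged over the 6 libraries, the order was Cdkn2a at 276 ± 38.3 FPKM, Cdkn2c at 73.4 ± 3.99, Cdkn2d at 50.8 ± 6.03, Cdkn1b at 35.0 ± 4.12, Cdkn2b at 21.7 ± 1.22, Rbl1 at 17.5 ± 1.71, Rbl2 at 15.5 ± 1.61, Cdkn1c at 7.16 ± 0.730 and Rb1 at 7.15 ± 0.905 FPKM (SD, n = 6). Neighbours in this order did not overlap between libraries, with the exceptions of Rbl1 with Rbl2 and of Cdkn1c with Rb1. Rbl1 was above Rbl2 in each of the 6 libraries, and Cdkn1c was above Rb1 in 2 of 6.
Among the 12941 genes tested, Cdkn2a ranked 100 by mean FPKM, and 55.3% had a lower mean than Rb1.

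**Figure D2:**
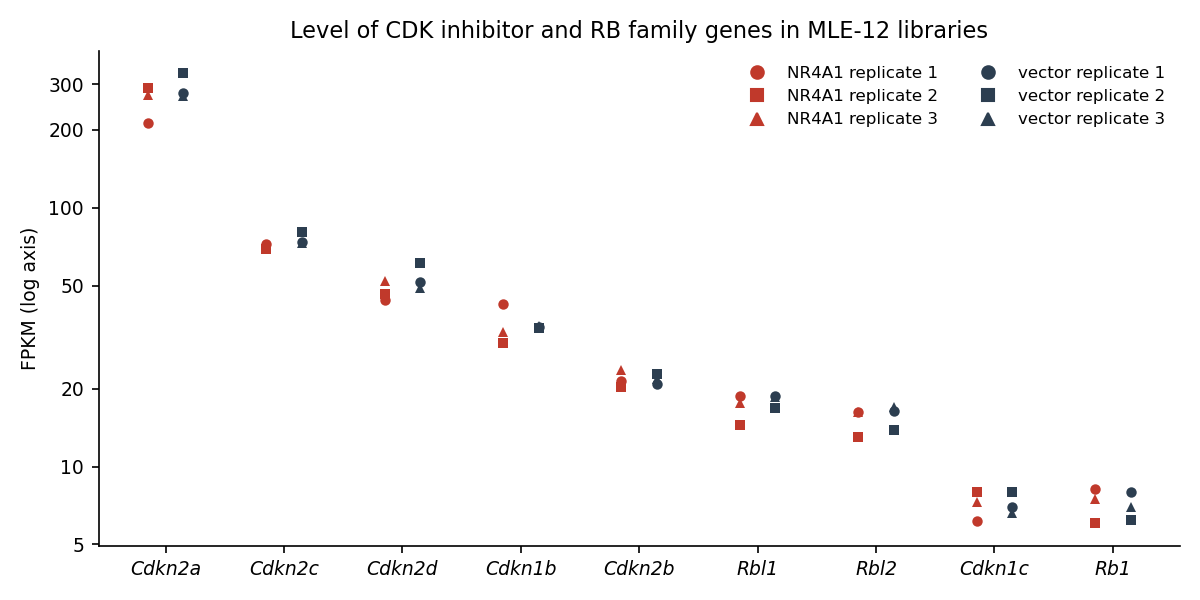
FPKM of each gene in each library, on a log axis, with NR4A1 overexpression in red and vector in dark blue, and a symbol for each replicate number. Cdkn2a lies between 213 and 331 FPKM in all 6 libraries and Rb1 between 6.04 and 8.20 FPKM, and the groups overlap for every gene but Cdkn2c.

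The middle of this order depends on the gene length that was used. The length behind the deposited FPKM equals the transcript length, within 0.5%, for 90.3% of 4716 genes with 1 transcript in GENCODE M21, but for genes with several transcripts it can exceed any of them. For Cdkn1b it was 7580 bases, although the gene spans 5113 bases and its longest transcript has 4552. With the longest transcript as the length instead, an alternative chosen after the data had been seen, Cdkn1b was at 58.3 ± 6.87 and lay above Cdkn2d at 45.4 ± 5.39 in all 6 libraries, with ranges that overlapped. Rbl2 at 26.9 ± 2.79 and Rbl1 at 25.4 ± 2.47 then had higher means than Cdkn2b at 21.8 ± 1.22 (on the FPKM scale, SD, n = 6). The ranges of Rbl2 and of Rbl1 each overlapped that of Cdkn2b. Cdkn2a at 434 ± 60.1 and Cdkn2c at 83.9 ± 4.56 stayed the highest, and Cdkn1c at 10.6 ± 1.08 and Rb1 at 10.4 ± 1.32 the lowest.

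Cdkn2a was the most abundant of the INK4 genes. The gene (ENSMUSG00000044303) lies on the minus strand of chromosome 4 of GRCm38 from 89274471 to 89294653, and encodes p16INK4a, a CDK4 and CDK6 inhibitor, and, from an upstream first exon and another reading frame, p19ARF, which binds MDM2 and stabilizes p53. The deposited table has 1 value for both products. Of the stretches of 50 bases in the annotated transcripts, 65.9% of those in Cdkn2a-201, which starts at the downstream first exon, also occur in Cdkn2a-202, which starts at the upstream one, so the counts do not tell p16INK4a from p19ARF. Its level was 213, 291 and 273 FPKM in NR4A1 replicates 1, 2 and 3 and 278, 331 and 271 FPKM in vector replicates 1, 2 and 3. NR4A1 replicate 1 was the lowest library and vector replicate 2 the highest, and the groups overlapped. The log2 fold change was -0.16 (SE 0.134, edgeR adjusted p = 0.904). It ranged from -0.25 without NR4A1 replicate 2 to -0.04 without NR4A1 replicate 1. Cdkn2a made up between 60.6% and 68.2% of the summed FPKM of the 4 INK4 genes in every library.

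Cdkn2b (ENSMUSG00000073802), which encodes p15INK4b, an inhibitor known as a target of TGF-β signalling, is the neighbour of Cdkn2a on the same strand, from 89306289 to 89311032 with 11635 bases between the genes. Its level was 21.4, 20.2 and 23.5 FPKM in the NR4A1 replicates and 20.8, 22.7 and 21.8 FPKM in the vector replicates. The highest and the lowest value were both in the NR4A1 group, and the group means were 21.7 ± 1.67 and 21.8 ± 0.968 FPKM (SD, n = 3 each). Its log2 fold change was 0.02 (SE 0.0858, edgeR adjusted p = 0.983). It made up between 4.57% and 6.10% of the summed FPKM of the INK4 genes, and no stretch of 50 bases was shared between transcripts of these neighbours.

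Cdkn2c (ENSMUSG00000028551; chromosome 4 from 109660876 to 109667189, minus strand), which encodes p18INK4c, was the second most abundant of the 9. Its level was 72.5, 69.3 and 70.7 FPKM with NR4A1 and 74.1, 80.8 and 73.0 FPKM with the vector. By FPKM every NR4A1 library lay below every vector library, as in 7.80% of the genes tested. With TMM normalization (edgeR's scaling for composition), 2 of the 3 NR4A1 libraries lay below every vector library, at 208, 198 and 200 CPM against 209, 226 and 205 CPM, and 6.22% of the genes tested were separated in this direction. The log2 fold change was -0.08 (95% confidence interval -0.24 to 0.09, edgeR adjusted p = 0.913). Cdkn2d (ENSMUSG00000096472; chromosome 9 from 21288463 to 21291209, minus strand), which encodes p19INK4d, was at 44.1, 46.3 and 52.2 FPKM with NR4A1 and 51.6, 61.4 and 49.2 FPKM with the vector. Vector replicate 2 was the highest library and NR4A1 replicate 3 lay above vector replicates 1 and 3. The log2 fold change of Cdkn2d, -0.16 (SE 0.113, edgeR adjusted p = 0.876), had the smallest unadjusted p of the 9 genes, 0.188 from the same test, and it was -0.07 without vector replicate 2.

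Of the CIP/KIP genes, Cdkn1b (ENSMUSG00000003031; chromosome 6 from 134920401 to 134925513, plus strand) encodes p27, whose amount is known to be set to a large part by degradation of the protein, and Cdkn1c (ENSMUSG00000037664; chromosome 7 from 143458350 to 143461050, minus strand) encodes p57, from an imprinted gene. Cdkn1b was at 42.6, 30.1 and 33.3 FPKM with NR4A1 and 34.8, 34.4 and 35.0 FPKM with the vector. The vector libraries were close together and the NR4A1 libraries lay on both sides of them, with SDs of 0.346 and 6.49 FPKM. The log2 fold change of 0.05 (SE 0.130, edgeR adjusted p = 0.974) turned to -0.12 without NR4A1 replicate 1 and was 0.15 without NR4A1 replicate 2. Cdkn1c was at 6.15, 7.95 and 7.31 FPKM with NR4A1 and 6.97, 7.97 and 6.61 FPKM with the vector. NR4A1 replicate 2 and vector replicate 2 were its highest libraries. Its log2 fold change was 0.01 (SE 0.124, edgeR adjusted p = 0.992), and -0.07 without NR4A1 replicate 2. Of its 50-base stretches, 24.9% lie on the strand opposite to Gm44732, an antisense gene, and the strand setting of the counting is not given in the sources used here.

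Cdkn1a, the remaining CIP/KIP gene, encodes p21, a target of p53, and is not among the 9. It was at 13.9, 34.4 and 15.5 FPKM with NR4A1 and 9.29, 9.73 and 8.996 FPKM with the vector, so that every NR4A1 library lay above every vector library, and so it did in TMM-normalized CPM, on which scale 6.69% of the genes tested were separated in this direction. Its log2 fold change was 1.21 (SE 0.332, edgeR adjusted p = 0.460), 0.68 without NR4A1 replicate 2 (edgeR adjusted p = 0.0499, under 2-fold), and past the threshold with DESeq2 (adjusted p = 0.00726). Cdkn1b made up between 41.6% and 68.0% of the summed FPKM of the 3 CIP/KIP genes in the NR4A1 libraries and between 66.0% and 69.2% in the vector libraries. The lowest share was that of NR4A1 replicate 2, where Cdkn1a had its highest level.

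The pocket protein genes were lower than Cdkn2a, Cdkn2c, Cdkn2d and Cdkn1b. Rb1 (ENSMUSG00000022105; chromosome 14 from 73183673 to 73325822, minus strand), which encodes RB, was at 8.20, 6.04 and 7.48 FPKM with NR4A1 and 7.99, 6.20 and 6.97 FPKM with the vector. Rbl1 (ENSMUSG00000027641; chromosome 2 from 157145893 to 157204534, minus strand), which encodes p107 and is known as an E2F target that is used in cycling cells, was at 18.8, 14.4 and 17.59 FPKM against 18.8, 16.8 and 18.6 FPKM. Rbl2 (ENSMUSG00000031666; chromosome 8 from 91070057 to 91123844, plus strand), which encodes p130, the pocket protein of the DREAM repressor complex in resting cells, was at 16.2, 13.0 and 16.3 FPKM against 16.3, 13.8 and 17.0 FPKM. In all of them, NR4A1 replicate 2 was the lowest library and vector replicate 2 the second lowest. The log2 fold changes were 0.06 for Rb1 (SE 0.146, edgeR adjusted p = 0.974), -0.07 for Rbl1 (SE 0.113, edgeR adjusted p = 0.957) and -0.03 for Rbl2 (SE 0.121, edgeR adjusted p = 0.981). Without NR4A1 replicate 2 they were 0.17, 0.03 and 0.07.
Their proportions varied little between the 6 libraries. Of their summed FPKM, Rb1 made up 16.4% to 19.0%, Rbl1 42.5% to 45.6% and Rbl2 37.5% to 40.0%. These shares rest on the gene lengths behind the FPKM. With the longest transcript as the length, Rbl2 lay above Rbl1 in 5 of the 6 libraries. Some transcript sequence of the pocket protein genes lies opposite to other genes. For Rb1, 12.0% of the 50-base stretches lie opposite to Lpar6 and Rcbtb2, and for Rbl2, 17.1% lie opposite to Aktip and Gm45464. Lpar6 was counted between 221 and 304 times, Rcbtb2 between 384 and 431 times and Aktip between 698 and 828 times per library.

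Proximal promoters from RefSeq (GRCm38.p6; 250 bases before the annotated start to 50 after it) were listed for 7 of the 9 genes, with 9 promoters in all. They were searched on both strands for the E2F element, spelled TTTCGCGC, TTTGGCGC, TTTCCCGC or TTTGGCGG, since the pocket proteins act at E2F sites and Rbl1 is itself an E2F target. A match was found in 2 of the 9 promoters, and in 2.37% of the 32851 promoters listed for the mouse. The matches are shown with the bases around them, 5′ to 3′ on the strand of the gene, with the element in capitals.
Rbl1, chr2:157204534-157204563, minus strand: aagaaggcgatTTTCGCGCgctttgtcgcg
Cdkn2a, upstream start, chr4:89294700-89294729, minus strand: ctctgggaagcTTTCCCGCgcgactgggga
The element begins 18 bases before the start site in Rbl1, and 99 bases before the upstream start, that of the p19ARF transcript, in Cdkn2a. The monomer site of NR4A1, AAAGGTCA, was found in 0 of the 9 promoters and in 1.51% of all. A match is a description of the letters in these windows and says nothing of binding, and Cdkn1c and Rb1 were not in the promoter table.

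The spread between libraries of the 4 genes with long transcripts and of Cdkn2a moved with transcript length in the libraries that stood furthest from the mean. For each gene, the log2 level in each library was taken relative to the mean of the 6 libraries. Over the 3724 genes tested with a transcript of at least 4500 bases, the median was 0.11 in NR4A1 replicate 1, -0.09 in NR4A1 replicate 2 and -0.14 in vector replicate 2, and between 0.03 and 0.05 in the other 3 libraries. The 4 long members, Cdkn1b, Rb1, Rbl1 and Rbl2 with 4552 to 4925 bases, were all above their mean in NR4A1 replicate 1, at 0.09 to 0.31, and all at their lowest in NR4A1 replicate 2, at -0.26 to -0.20, which is further from 0 than the median of long genes there. In vector replicate 2 they were at -0.21 to -0.04.
Over the 1655 genes with transcripts of at most 1500 bases the medians had the opposite sign, with -0.12 in NR4A1 replicate 1, 0.09 in NR4A1 replicate 2 and 0.13 in vector replicate 2. Cdkn2a, with 895 bases, was at -0.34, 0.10 and 0.26 in these libraries, while Cdkn2b, with 1390 bases, was at 0.00, -0.09 and 0.05 and Cdkn2d, with 1423 bases, at -0.17, -0.12 and 0.26. Cdkn2b did not follow the medians of short genes in NR4A1 replicates 1 and 2, nor Cdkn2d in NR4A1 replicate 2, and Cdkn1b was at -0.07 in NR4A1 replicate 3, where the median of long genes was 0.03. Cdkn1c and Cdkn2c, with transcripts of 1901 and 2471 bases, fall in neither class. GC content moved in the same way: the median of genes with at least 55% GC minus that of genes with at most 45% GC was -0.31 in NR4A1 replicate 1, 0.12 in NR4A1 replicate 2 and 0.15 in vector replicate 2. In these libraries Cdkn2a (60.2% GC), Cdkn1c (59.4%), Cdkn1b (43.1%), Rbl1 (42.1%) and Rb1 (41.2%) had the sign of their GC class median. Cdkn2c (58.0%) was at 0.00 and -0.07 in NR4A1 replicates 1 and 2, and Cdkn2b (55.9%) at 0.00 and -0.09. Cdkn2d (55.8%) was at -0.12 in NR4A1 replicate 2. The medians of genes with at least 55% GC were -0.15 and 0.05 in NR4A1 replicates 1 and 2. Rbl2, with 47.0% GC, falls in neither GC class. The libraries named are of both groups, and the part of length and GC content in the values of the 9 genes was not tested.

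**Figure D3:**
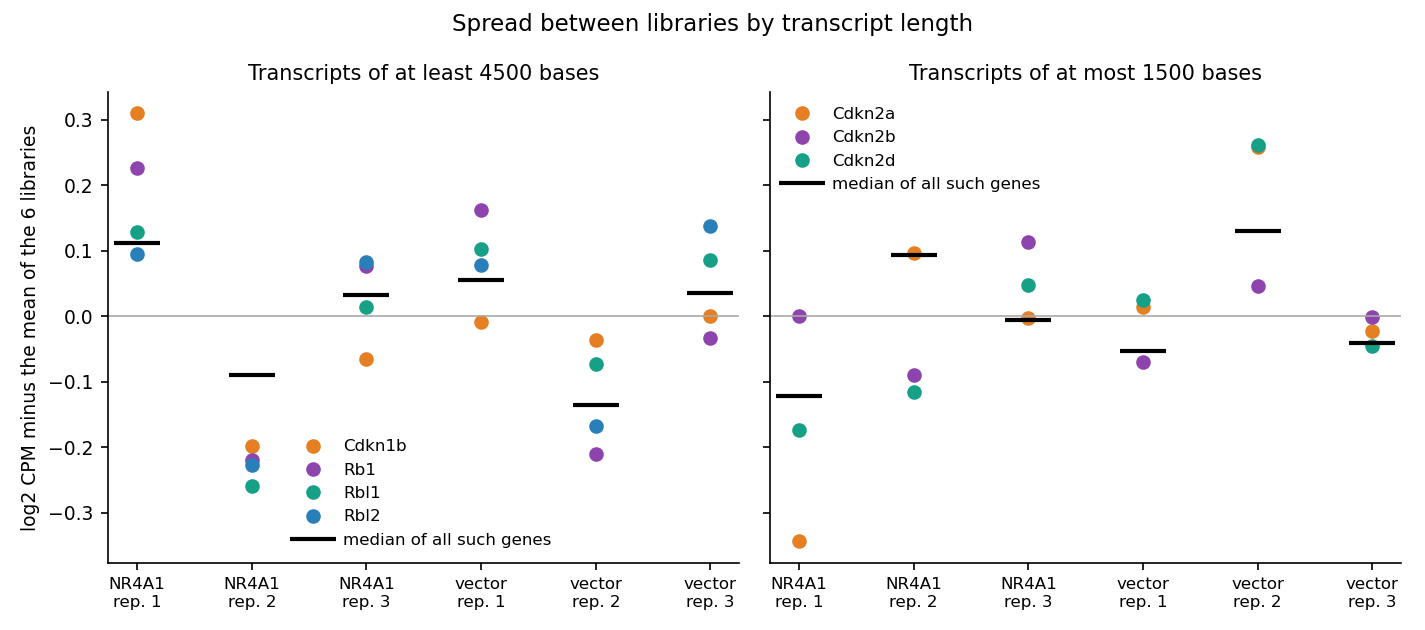
Log2 CPM of each long gene (left, transcripts of at least 4500 bases) and each short gene (right, at most 1500 bases) minus its mean over the 6 libraries, with black bars at the median of all tested genes of that length. The 4 long genes lie at -0.26 to -0.20 in NR4A1 replicate 2, where the median of long genes is -0.09, and Cdkn2a lies at -0.34 in NR4A1 replicate 1 and at 0.26 in vector replicate 2.

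Around these genes, 74 genes in 7 lists were read from the same fit, and 0 of the 74 were called (edgeR's quasi-likelihood test), while 7 had an unadjusted p under 0.05, all of them higher with NR4A1. Over all genes tested, 6.46% had such a p, 520 of them higher and 316 lower. The 7 include Cdkn1a, which the paper had already listed as changed in these data. With DESeq2, 1 was called, Cdkn1a. The median log2 fold change over the 74 was -0.01 against 0.01 over all genes tested. Of the 10 E2F and DP factors, which the pocket proteins bind, the 3 with the smallest p were E2f5, a repressor E2F, at 0.25 (adjusted p = 0.678), E2f4, the main partner of p107 and p130, at -0.12 (adjusted p = 0.900), and Tfdp2, a DP subunit, at 0.69 (adjusted p = 0.904). Tfdp2 was between 94.9 and 265 CPM in the NR4A1 libraries and at 72.3, 225 and 56.1 CPM in the vector libraries, so its groups overlapped widely. Leaving out 1 library moved its log2 fold change between 0.35 (without vector replicate 3) and 1.57 (without vector replicate 2, edgeR adjusted p = 0.758). Of the 8 genes of the DREAM and MuvB complexes and their partners, Foxm1, a factor that drives mitotic genes, was at 118, 201 and 202 CPM with NR4A1 and 234, 235 and 235 CPM with the vector. Its log2 fold change of -0.43 (adjusted p = 0.784) became -0.22 without NR4A1 replicate 1. Lin9 at -0.18 and Dyrk1a, the kinase that starts DREAM assembly, at 0.19 had adjusted p-values of 0.859 and 0.900 from the same test.

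Of the targets of the inhibitors, the 8 G1 cyclins and CDKs, Cdk6 was at 21.8, 19.5 and 18.1 CPM with NR4A1 and 16.4, 11.2 and 12.7 CPM with the vector. Its log2 fold change was 0.56 (SE 0.159, edgeR adjusted p = 0.499), and the groups did not overlap, as for 6.69% of the genes tested in this direction. Ccnd2, a D-type cyclin, was at 0.23 (adjusted p = 0.809) and Cdk4, the other INK4 target, at 0.11 (adjusted p = 0.916), each with overlapping groups. The 16 genes listed as targets that E2F factors activate are mostly of DNA synthesis, with Cdk1 and Ccna2 also among them. Of these 16, 14 had a log2 fold change below 0, as had 6228 of the 12941 genes tested. The median of the 16 was -0.10, with a range from -0.24 to 0.10. None had an unadjusted p under 0.05. In 4 of the 16 every NR4A1 library lay below every vector library and in 1 above, against 6.22% and 6.69% of all genes tested. The 3 with the smallest p were Mcm2 at -0.16 and Mcm5 at -0.18, subunits of the replicative helicase, and Tk1, thymidine kinase, at -0.24 (adjusted p = 0.774, 0.829 and 0.777 from the same test). Without NR4A1 replicate 1, Mcm2, Mcm5 and Tk1 were at -0.14, -0.10 and -0.20. Without vector replicate 2 they were at -0.16, -0.13 and -0.14. For Mcm5 and Tk1, NR4A1 replicate 1 was the lowest library and vector replicate 2 the highest. These libraries stood furthest apart in the length and GC medians above, whose part was not tested. The counts over the 16 genes were not repeated with a library left out.

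**Figure D4:**
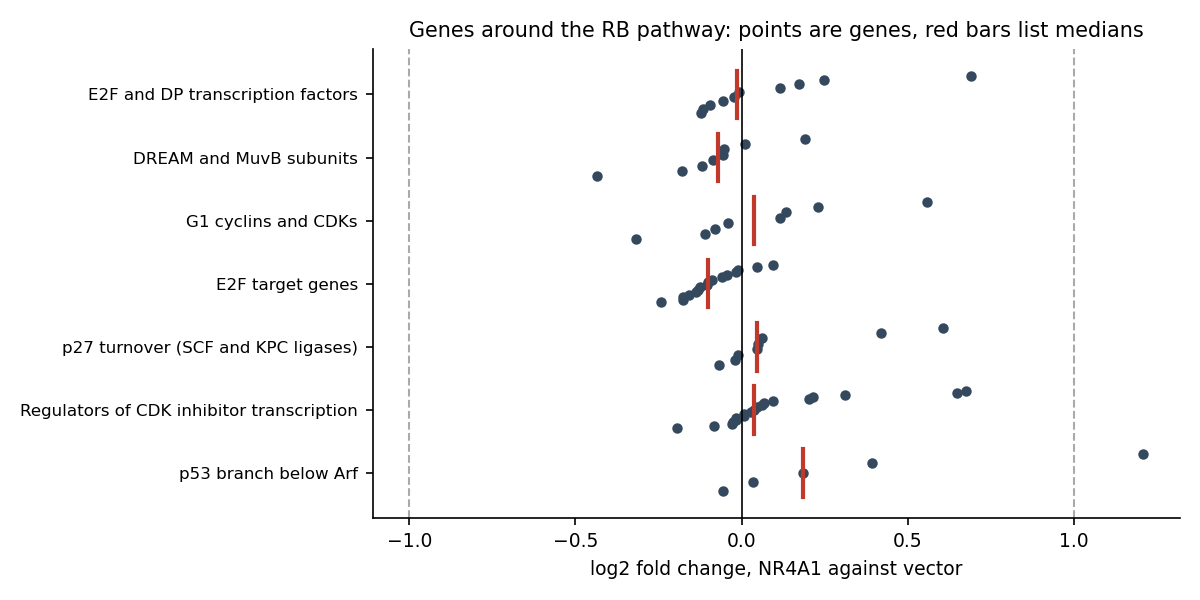
Log2 fold change, NR4A1 overexpression against vector, of each gene of the 7 lists (points), with the median of each list (red bars) and dashed lines at a 2-fold change. Medians lie between -0.10 (E2F target genes) and 0.19 (the p53 branch below Arf), and Cdkn1a is the point beyond the upper dashed line.

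Of the 8 genes of p27 turnover, Skp2, which recognizes p27 for ubiquitination, was at between 54.3 and 62.5 CPM with NR4A1 and at 52.7, 25.7 and 34.4 CPM with the vector, a log2 fold change of 0.61 (SE 0.242, edgeR adjusted p = 0.735). Vector replicate 1 was close to the NR4A1 libraries. The log2 fold change was 0.93 without vector replicate 1 and 0.39 without vector replicate 2. Skp2 overlaps Lmbrd2 on the opposite strand, which was counted between 398 and 1014 times per library. E2f5, Cdk4, Tk1, Fbxw7, Rnf2 and Rnf123 also overlap counted genes on the opposite strand. The most counted was Tspan31 (1669 to 2163 counts) for Cdk4. Others were 1810022K09Rik (361 to 420 counts) for E2f5, Gmppb (133 to 198 counts) for Rnf123 and Gm37240 (82 to 185 counts) for Fbxw7. Fbxw7, which recognizes cyclin E, was at 0.42 (adjusted p = 0.678) with groups that did not overlap, and Rnf123, a subunit of the ligase for cytoplasmic p27, at -0.07 (adjusted p = 0.941). Of the 19 regulators of CDK inhibitor transcription, Foxo1, a forkhead factor that activates Cdkn1b, was at 25.5, 24.8 and 25.6 CPM with NR4A1 and 21.9, 21.8 and 21.8 CPM with the vector. The difference was small, a log2 fold change of 0.21 (SE 0.0738, edgeR adjusted p = 0.665), with groups that did not overlap. Over all genes tested, 6.69% were separated in this direction, and Foxo1 and Fbxw7 were named for a small p in their lists. The Polycomb genes Suz12 and Rnf2, of the complexes known to silence Cdkn2a, were at 0.67 (adjusted p = 0.795) and 0.20 (adjusted p = 0.874) from the same test. Suz12 was at 513, 386 and 422 CPM with NR4A1 and at 227, 175 and 426 CPM with the vector, so that vector replicate 3 was at the level of the NR4A1 group. Of the 5 genes of the p53 branch below p19ARF, 2 had an unadjusted p under 0.05 in edgeR's test, Cdkn1a and Mdm2, against 6.46% of all genes tested. The paper had already listed Cdkn1a among the genes changed in these data, and the list was chosen with earlier results known. The count of 2 is therefore no independent result. Cdkn1a is given above, and Mdm2, the ubiquitin ligase of p53, was at 67.7, 92.4 and 70.9 CPM with NR4A1 and 58.3, 59.4 and 58.3 CPM with the vector. The log2 fold change of Mdm2 was 0.39 (SE 0.128, edgeR adjusted p = 0.638), and that of Mdm4 was 0.19 (adjusted p = 0.845) with overlapping groups. For both Cdkn1a and Mdm2 the highest library was NR4A1 replicate 2, where the endothelial and smooth muscle marker sums and most fibroblast markers were highest, and the part of what those markers measure in these values was not tested.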

How the data were processed

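Total RNA of 6 MLE-12 samples was sequenced as strand-specific libraries (TruSeq Stranded Total RNA, Illumina). Per the labels, reads were aligned with HISAT2 2.0.4 to GRCm38.p4, and the counting program, its strand setting and the annotation are not given in the sources used here. The authors deposited 1 table with raw counts per gene and library and with FPKM values per gene and library. Over 10738 genes the deposited FPKM equals the count divided by the library's total count and a gene length fixed across libraries, within 0.00129%. Groups and replicate numbers were taken from the sample labels.

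Counts were filtered with filterByExpr, TMM-normalized and compared with edgeR 4.0.16 (R 4.3.3; quasi-likelihood test, 12941 genes, Benjamini-Hochberg). The SE was derived as the absolute log2 fold change divided by the square root of the test's F statistic. Confidence intervals use this SE and the test's degrees of freedom. No pair of libraries of a group was as close as counting error (chi-square per degree of freedom 9.82 to 44.6), so all 6 were used. On simulated counts with 200 of 12812 genes changed 3-fold, 183 were recovered (91.5%) with 7 false calls. The changed genes were drawn only from those with higher counts, and no outlying library was simulated. Recovery of smaller changes was not measured. Transcripts were from GENCODE M21 (GRCm38) and promoters from RefSeq, read with Python 3.11.15; length and GC content (longest M21 transcript) were found for 99.6% of the genes tested. Alternatives were DESeq2 1.42.0, its size factors in edgeR, no scaling factors, the exact test, limma-voom (limma 3.58.1), other count filters and thresholds, limma on log2(FPKM + 1), the replicate number as a block, and each library left out. The members and lists were chosen with earlier results of these data known. Beside all 9 members, Nr4a1 and Cdkn1a, the text names the 3 genes with the smallest p of each list; Lmbrd2 and the other overlapping genes were added afterwards. The limits of 4500 and 1500 bases and of 55% and 45% GC were also chosen after the data had been seen.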

Additional observations from a re-analysis of the deposited data

How the results depend on the processing

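The count of 0 called members held under all 17 alternatives, and the log2 fold changes of Cdkn2a, Cdkn2c and Cdkn2d stayed below 0 in every fit. The other 6 members have no stable direction. Leaving out 1 library moved the log2 fold change between -0.12 and 0.15 for Cdkn1b, -0.072 and 0.10 for Cdkn1c, -0.045 and 0.067 for Cdkn2b, -0.045 and 0.17 for Rb1, -0.16 and 0.031 for Rbl1, and -0.12 and 0.067 for Rbl2. With library totals it was -0.0066 for Cdkn1c and -0.00081 for Cdkn2b, and with limma on log2(FPKM + 1) it was -0.011 and -0.0040. The cause was not tested. The 22 genes called of all tested became 161 with an unadjusted p and 2-fold, 73 with DESeq2, 67 with the exact test, 8 with a mean of at least 10 counts and 7 with limma on log2(FPKM + 1), and between 3 and 28 with 1 library left out (28 without NR4A1 replicate 2, 3 without NR4A1 replicate 3, 4 without NR4A1 replicate 1 and 6 without each vector library). Of the 74 pathway genes, 1 was called with an unadjusted p and 2-fold and 1 with DESeq2, Cdkn1a in both. Same-numbered libraries of the groups share only a number: their deviations from the group means correlated at -0.011, -0.046 and 0.246 for replicates 1, 2 and 3, and not every library correlated best with its own number. With the replicate block, 5 genes and 0 members were called. With 3 libraries a group, the data do not tell apart the differences within each confidence interval. The intervals do not give the smallest difference that would have been called.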
